A study of Mus musculus with 4 samples.

Results

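The mitochondrial ribosomal protein genes are the nuclear genes for the proteins of the ribosome that works inside mitochondria. They were taken as every gene with a non-control probe named Mrpl or Mrps followed by a number and an optional letter, which gave 76 genes read by 127 probes, of 16978 genes tested. The cells were immature granulocytes obtained by sorting bone marrow. All mice were male and of the C57BL/6 strain; 2 samples were miR-223 KO and 2 were wild type (WT), and each was run on its own 1-colour array. The labels give no age, no design of the knockout allele, no sorting gate and no treatment. Nor do they state that replicates are separate animals, so a p-value here reflects the spread between samples that may be technical repeats. The number of arrays limits the precision.

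Mitochondria keep a small genome that encodes a few subunits of the respiratory chain together with the ribosomal and transfer RNAs needed to translate them. All proteins of the mitochondrial ribosome are encoded in the nucleus, made in the cytosol and imported. Some descend from bacterial ribosomal proteins and others were added in the mitochondrial line; the large subunit (mostly Mrpl genes) forms peptide bonds and the small subunit (mostly Mrps genes) reads the messenger RNA. Neutrophils are known for having few mitochondria and for relying on glycolysis, and their dividing precursors in the marrow carry more.

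miR-223 is a microRNA abundant in myeloid cells, and the comparison asks which transcripts differ when it is missing. Its mature strand is shown because the seed (bases 2 to 8, in capitals) is the stretch that pairs with target transcripts; the sequence is from RefSeq, GRCm38.p6, chrX:96242884-96242905, plus strand.
mmu-miR-223-3p: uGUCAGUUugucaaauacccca
Matches to that seed were searched in the probes, which are 60 bases long, have the sequence of the transcript itself and may cover any stretch of it. The 8mer AACTGACA was in 0 of 127 member probes, against 0.136% of all 41174 probes. Its parts AACTGAC and ACTGACA were also in 0 member probes, against 0.372% and 0.471% of all probes. The shorter match ACTGAC was in 2 member probes (1.57%, against 1.41% of all), 1 of Mrpl41 and 1 of Mrps33. On the log2 scale KO minus WT was -0.08 ± 0.09 for the Mrpl41 probe (SE here and throughout, with 2 arrays a genotype), and 0.29 ± 0.10 for the Mrps33 probe, which is not the brightest of its gene (limma adjusted p = 0.19). On the opposite strand each of the 4 motifs was in 1 member probe. The probes cover a small part of each transcript, so these counts say nothing about the rest of it.

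The arrays shared 1 slide and 1 scan. On each of the 4 arrays 59.6% to 62.9% of the spots were well above background and 0 were saturated. Levels are given as log2 processed signal minus the 75th percentile of the array, so a level of 0 is that percentile. No probe names Mir223 (0 probes), so the deleted gene gave no check of the genotype labels. Of 16 granulocyte precursor markers 13 were measured, with 7 higher and 6 lower in KO and a median difference of 0.05, and their summed level (in units of the 75th percentile) was 6842 and 6068 in the KO samples and 6557 and 7117 in the WT samples. Of those higher, 3 reached an unadjusted p under 0.05 and passed an adjusted p under 0.05 with an intensity trend in limma: the azurophil granule proteases Prtn3 (0.72), Ctsg (0.63) and Elane (0.50). Of those lower, 0 reached an unadjusted p under 0.05 in limma. Over both directions that was 23.1% of the measured markers, near the 23.8% of all genes. With the trend, 5.45% of all genes were called higher and 4.13% lower. Azu1, Ly6g and Cebpe were the markers of that list not measured.

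The mitochondrial ribosomal protein transcripts were well detected and differed little between genotypes. All 76 genes had a brightest probe well above background on all 4 arrays, and 72 had a mean level above the 75th percentile of the array. Of all 16978 genes, 15621 had some probe well above background on all 4 arrays. That percentile is over all non-control spots, and the median level of all genes was -0.44 to -0.40 across the arrays. The mean level of the members ran from -0.91 to 6.77 in KO (median 2.37) and from -1.06 to 6.68 in WT (median 2.35). Mrps27 was at the low end and Mrpl33, a bacterial-type protein of the large subunit, at the high end in both genotypes, although levels of different probes also reflect the probes themselves. None of the 76 passed an adjusted p under 0.05 in limma, as none of all 16978 genes did (0 members and 0 genes, or 0%; smallest adjusted p 0.118 among members and 0.0838 among all genes). In bulk RNA, fewer cells of a type and less RNA per cell cannot be told apart.

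Replicates of these transcripts lay closer together than those of most genes. The median absolute gap between replicates was 0.0633 in KO and 0.0689 in WT, against 0.135 in KO and 0.124 in WT over all genes. The widest gap among members was 0.287 in KO and 0.223 in WT, and 53 members in KO and 56 in WT had a gap under 0.1. In the KO samples 34 of 76 members were higher in replicate 1 than in replicate 2 (median gap -0.0097). In the WT samples 58 of 76 were higher in replicate 1 than in replicate 2, by a median of 0.0456, while over all genes that gap was -0.0039.

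The median log2 difference over the 76 members was 0.08, against -0.02 over all genes, with 53 members higher and 23 lower in KO. The differences ran from -0.48 (Mrpl15) to 0.52 (Mrpl52) with an SD over genes of 0.144. The median absolute difference was 0.10 in the members and 0.20 over all genes, 37 members differed by less than 0.1, and 7 (9.21%) by more than 0.25, as did 41.0% of all genes. No member differed by 2-fold (0 of 76), against 2.50% of all genes. An unadjusted p under 0.05 was reached by 5 members that were higher (background 11.8%) and 1 that was lower (background 12.0%), together 7.89% of the members against 23.8% of all genes. In the respiratory chain and cytosolic ribosomal protein lists described below, that share was 5.19% and 3.61%. The contrasts with all genes were not matched for level, so they are not read as particular to this family. Both KO samples lay above both WT samples in 36 members (47.4%, against 28.0% of all genes) and below both in 12 (15.8%, against 30.5%), and in 28 the genotypes overlapped. With an intensity trend in limma 1 member was called higher, Mrpl52, and 0 lower, against 5.45% and 4.13% of all genes.

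With the arrays scaled on their medians the split was 65 higher and 11 lower (median 0.16), in place of 53 and 23, and with the authors' deposited values it was the same. Both settings shifted all genes alike, the median of all genes by 0.08 under each, and the members' median minus that of all genes was 0.10 in all 3 settings. Leaving out 1 sample moved that gap. Without WT replicate 2 the members' median was 0.04 (48 higher, 28 lower; 0.04 above all genes), and without WT replicate 1 it was 0.11 (59 higher, 17 lower; 0.14 above all genes). Without KO replicate 2 it was 0.07, which was 0.06 above all genes, and without KO replicate 1 it was 0.08, which was 0.11 above all genes. The 95% intervals of the single genes, which are not adjusted for the number of genes, had a median half-width of 0.246 and a largest of 0.373. All 76 lay within 1 log2 unit of 0 and 70 of them included 0.

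**Figure D1:**
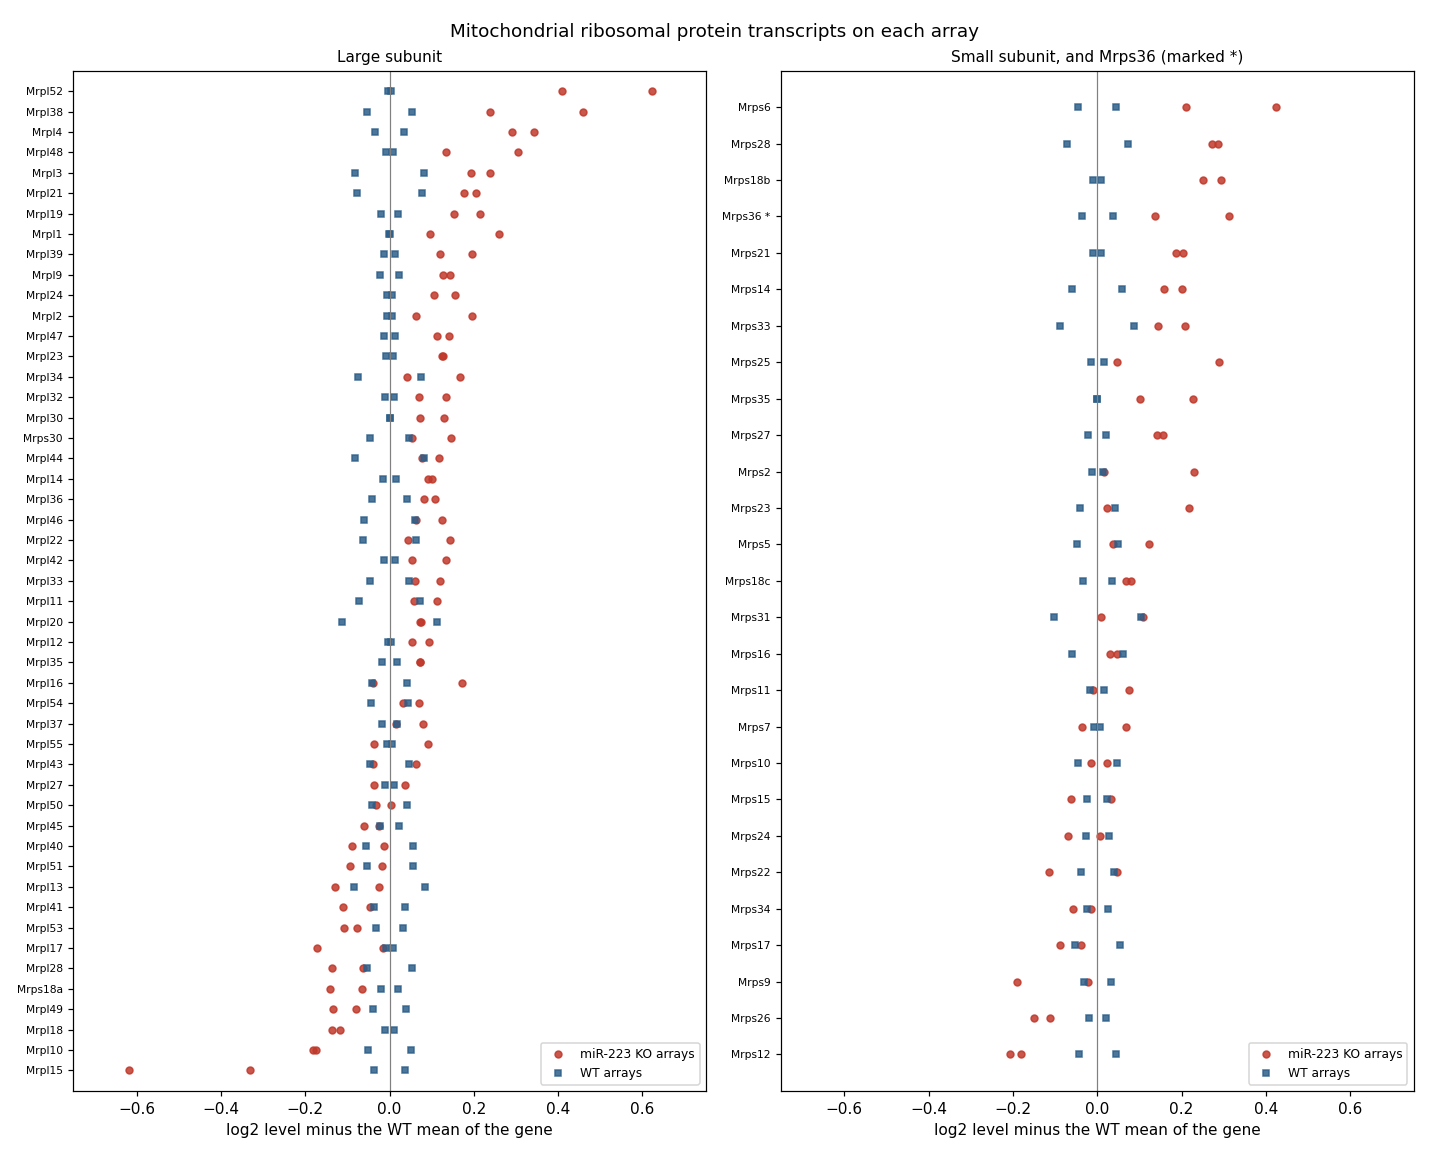
Level of each member on each array, given as the log2 level minus the WT mean of the gene, with genes down the page, the large subunit in 1 panel and the small subunit and Mrps36 in the other, and 1 point per array (miR-223 KO and WT samples). Most points of both genotypes lie close to 0, and Mrpl52 (higher in KO) and Mrpl15 (lower in KO) are the members farthest from it.

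In the large subunit 34 of 49 genes were higher and 15 lower in KO, with a median difference of 0.09. An unadjusted p under 0.05 was reached by 3 higher and 1 lower, together 8.16% against 23.8% of all genes. Mrpl52, a protein found in mitochondrial and not in bacterial ribosomes, had levels of 3.05 and 2.84 in KO and 2.43 and 2.43 in WT. Both KO samples were above both WT samples, the KO samples being 0.21 apart, and the log2 difference was 0.52 ± 0.11 (adjusted p = 0.118 in limma, and 0.0247 with an intensity trend). Mrpl4, the counterpart of a bacterial protein that lines the exit tunnel for the nascent peptide, had 1.28 and 1.23 in KO and 0.98 and 0.91 in WT. The genotypes did not overlap, with a difference of 0.32 ± 0.08 (limma adjusted p = 0.145). Mrpl38, a mitochondria-specific protein, had -0.45 and -0.67 in KO and -0.96 and -0.85 in WT. Its genotypes did not overlap, although the KO samples were 0.22 apart, and the difference was 0.35 ± 0.12 (limma adjusted p = 0.196). Mrpl19, with a bacterial counterpart at the subunit interface, had 1.34 and 1.28 in KO and 1.15 and 1.11 in WT, and its difference was 0.18 (limma adjusted p = 0.269).

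Among large-subunit genes that were lower, Mrpl15, the counterpart of bacterial L15, had 0.81 and 1.10 in KO and 1.47 and 1.39 in WT. Both KO samples were below both WT samples, but the KO samples were 0.29 apart, and the difference of -0.48 ± 0.13 (limma adjusted p = 0.155) rested on 1 of 2 probes, as described with the probes. Mrpl10, which holds the stalk proteins that recruit translation factors, had 1.82 and 1.82 in KO and 2.05 and 1.95 in WT. Its genotypes did not overlap, with a difference of -0.18 ± 0.09 (limma adjusted p = 0.298). Mrpl18, related to the bacterial protein that binds the small ribosomal RNA of the large subunit, had 3.89 and 3.91 in KO and 4.04 and 4.02 in WT, a difference of -0.13 (limma adjusted p = 0.385). Mrpl49 and Mrpl53, both mitochondria-specific, had differences of -0.11 and -0.09 (limma adjusted p = 0.489 and 0.528), also without overlap.

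Other large-subunit genes were described for their roles. Mrpl12, the stalk protein that has also been reported to bind the mitochondrial RNA polymerase, had 3.19 and 3.23 in KO and 3.13 and 3.14 in WT. The genotypes lay just apart, by 0.07 ± 0.08 (limma adjusted p = 0.604). Mrpl44, which has a fold related to ribonuclease III, had 2.61 and 2.65 in KO and 2.62 and 2.45 in WT, and Mrpl45, which sits by the tunnel exit facing the inner membrane, had 3.05 and 3.08 in KO and 3.09 and 3.13 in WT. The genotypes overlapped for Mrpl44 (difference 0.10) and lay just apart for Mrpl45 (difference -0.04). Under median scaling and with the authors' deposited values Mrpl45 stood at 0.04, a move no larger than that of all genes under the same settings. Mrps18a and Mrps30 carry small-subunit names but are placed in the large subunit. Mrps18a had a difference of -0.10 ± 0.08 and Mrps30 one of 0.10 ± 0.09 (limma adjusted p = 0.495 and 0.541).

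In the small subunit 18 of 26 genes were higher and 8 lower in KO, with a median difference of 0.07. An unadjusted p under 0.05 was reached by 2 higher and 0 lower, or 7.69% against 23.8% of all genes. Mrps18b had -0.34 and -0.30 in KO and -0.58 and -0.60 in WT. Its replicates were 0.04 apart in KO and 0.02 apart in WT, and the genotypes did not overlap, with a difference of 0.27 ± 0.08 (limma adjusted p = 0.164). Mrps28 had 2.99 and 2.98 in KO and 2.78 and 2.63 in WT. Both KO samples were above both WT samples, with a difference of 0.28 ± 0.09 (limma adjusted p = 0.195). Mrps6, the counterpart of bacterial S6, had 0.67 and 0.46 in KO and 0.30 and 0.21 in WT. It did not overlap either, but the KO samples were 0.21 apart, and the difference was 0.32 ± 0.11 (limma adjusted p = 0.213).

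Mrps21, the counterpart of bacterial S21, had 2.33 and 2.34 in KO and 2.15 and 2.13 in WT, a difference of 0.19 ± 0.08 without overlap (limma adjusted p = 0.240). Mrps12, whose bacterial counterpart is part of the decoding centre, had 3.48 and 3.51 in KO and 3.74 and 3.65 in WT. Both KO samples were below both WT samples, and the difference was -0.19 ± 0.08 (limma adjusted p = 0.261). Mrps26, a mitochondria-specific protein, had 3.10 and 3.06 in KO and 3.19 and 3.24 in WT, a difference of -0.13 (limma adjusted p = 0.384). Of the 3 genes related to bacterial S18, Mrps18a, Mrps18b and Mrps18c, which occupy different places in the ribosome, the differences were -0.10, 0.27 and 0.07. Whether these 3 differ from each other was not tested.

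Mrps36, which keeps a ribosomal name but has been reassigned to the mitochondrial alpha-ketoglutarate dehydrogenase complex, had 1.97 and 1.79 in KO and 1.69 and 1.62 in WT. Its genotypes did not overlap and the difference was 0.22 ± 0.10 (limma adjusted p = 0.282). By origin, 35 of 48 genes with a bacterial counterpart were higher (median 0.08), as were 17 of 27 mitochondria-specific genes (median 0.06). The difference between these classes, like that between the subunits, was not tested.

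**Figure D2:**
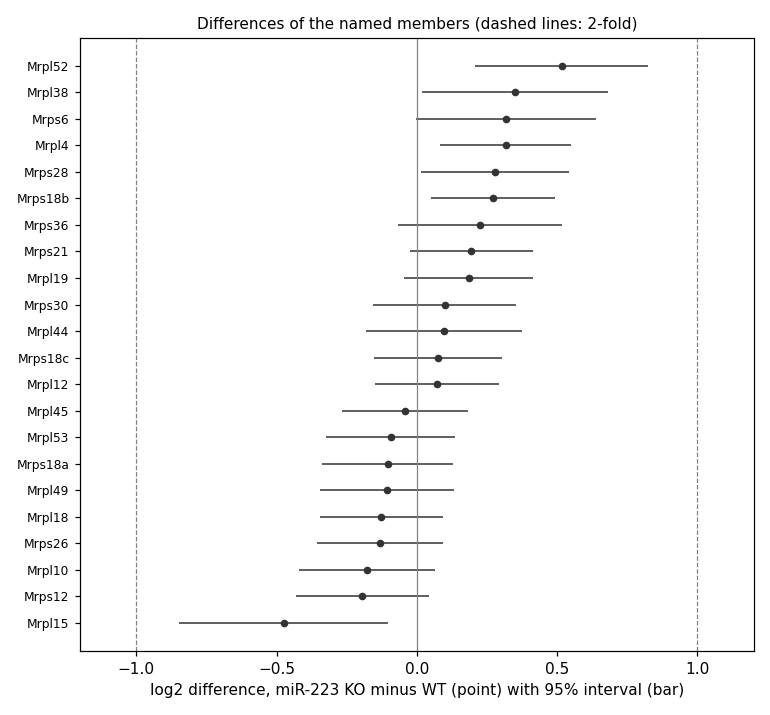
Log2 difference (miR-223 KO minus WT) of the 22 members described singly, as a point with its 95% interval as a bar, not adjusted for the number of genes; dashed lines mark 2-fold. No interval reaches 2-fold in either direction, and those of Mrpl52, Mrpl4, Mrps18b, Mrps28, Mrpl38 and Mrpl15 do not include 0.

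The remaining 54 members are given by their ranges. Of all genes, 28.0% had both KO samples above both WT samples and 30.5% had both below. In the large subunit 18 had both KO samples above both WT samples, by 0.07 to 0.22 (Mrpl1, Mrpl2, Mrpl3, Mrpl9, Mrpl14, Mrpl21, Mrpl23, Mrpl24, Mrpl30, Mrpl32, Mrpl33, Mrpl35, Mrpl36, Mrpl39, Mrpl42, Mrpl46, Mrpl47 and Mrpl48). Another 3, Mrpl17, Mrpl28 and Mrpl41, had both KO samples below both WT samples, with differences from -0.10 to -0.08. In 14 large-subunit genes the genotypes overlapped, with differences from -0.08 to 0.10 (Mrpl11, Mrpl13, Mrpl16, Mrpl20, Mrpl22, Mrpl27, Mrpl34, Mrpl37, Mrpl40, Mrpl43, Mrpl50, Mrpl51, Mrpl54 and Mrpl55). In the small subunit 6 had both KO samples above both WT samples, by 0.12 to 0.18 (Mrps2, Mrps14, Mrps25, Mrps27, Mrps33 and Mrps35). In the other 13 the genotypes overlapped, with differences from -0.11 to 0.12 (Mrps5, Mrps7, Mrps9, Mrps10, Mrps11, Mrps15, Mrps16, Mrps17, Mrps22, Mrps23, Mrps24, Mrps31 and Mrps34).

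Where several probes read 1 gene, their differences were mostly close. Of the 127 probes 123 were kept, and 34 members had several kept probes, whose differences spanned a median of 0.121 and at most 0.517. In 10 of the 34 the probes differed in sign, and in 2 of these, Mrpl15 and Mrps2, also by over 0.3. The Mrpl15 probe with the difference of -0.48, at chr1:4771675-4771734 in mm9, is annotated to a cDNA clone, and Mrpl15 was the single member whose brightest probe was not on a RefSeq transcript (75 of 76 were). The second Mrpl15 probe, on the RefSeq transcript at chr1:4767667-4767726, had 1.06 and 1.01 in KO and 0.92 and 1.07 in WT. There the genotypes overlapped, with a difference of 0.04 ± 0.10. The 3 probes of Mrps2 had differences of 0.12, -0.08 and -0.38, the brightest being the first.

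For Mrpl52 the difference of 0.52 came from the probe on its RefSeq transcript, at chr14:55048507-55048566 in mm9. A dim probe on a cDNA clone, at chr14:55046463-55046522, had -4.09 and -4.21 in KO and -4.13 and -4.29 in WT. The genotypes overlapped on it, with a difference of 0.06 ± 0.11, and another clone probe was not well above background on any array. The 2 kept probes of Mrps18b had differences of 0.27 and 0.01, the second read by a dim clone probe. Among the other members described singly, the kept probes differed in sign for Mrpl49 (-0.11, -0.07 and 0.02) and Mrpl45 (-0.04 and 0.05). They shared a sign for Mrps6, Mrpl38, Mrpl18, Mrps26, Mrps18c, Mrpl44 and Mrps36. The 2 probes of Mrps6 had differences of 0.32 and 0.35, those of Mrpl38 0.35, 0.35 and 0.13, and those of Mrpl18 -0.13, -0.20 and -0.25. In mm9 25 of the 127 probes span more than 60 bases, so their sequence crosses a gap such as an intron. No mm9 gene annotation was used here, so exon, intron and UTR positions of the probes are not given.

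**Figure D3:**
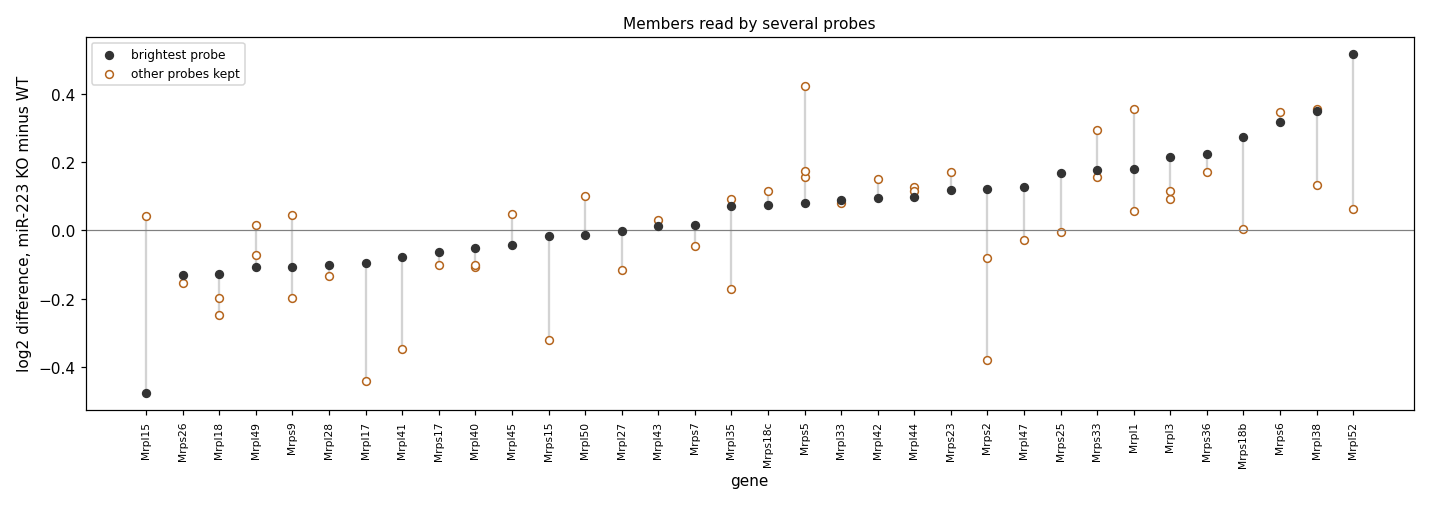
Log2 difference (miR-223 KO minus WT) of every kept probe of the 34 members with several kept probes, 1 column per gene, the brightest probe marked. The probes of a gene span a median of 0.121, and those of Mrpl15, Mrps2 and Mrpl52 are the widest apart.

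Promoters were examined because genes for mitochondrial ribosomal proteins are known to carry sites for the nuclear respiratory factors NRF1 and GABPA (an ETS factor, also called NRF2). RefSeq promoters of GRCm38.p6, 250 bases before to 50 after a gene's start, were matched to 67 of the 76 members (73 promoters). The ETS core CCGGAAG, searched on both strands, was in 24 of the 73 (32.9%), against 8.86% of all 32851 promoters. The NRF1 core GCATGCG, also on both strands, was in 8 (11.0%, against 3.58%), and the E box CACGTG in 7 (9.59%, against 7.15%). Both the ETS and the NRF1 core were held by 4 member genes. The median difference was 0.08 in the 24 genes with an ETS core and 0.08 in the 43 without, and 0.10 with and 0.07 without an NRF1 core (8 and 59 genes). A match is a description of letters, not evidence of a bound site.

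Stretches of 80 bases upstream of the start are shown for 5 of the members described, chosen to show the ETS and the NRF1 core each in a higher and a lower gene; the cores are in capitals, and in Mrps18b and Mrpl10 the NRF1 core overlaps itself on both strands. Mrpl52 is at chr14:54426812-54426891 (plus strand), Mrps18b at chr17:35916611-35916690 (minus), Mrpl10 at chr11:97041398-97041477 (plus), Mrpl53 at chr6:83109028-83109107 (plus) and Mrps18c at chr5:100798553-100798632 (plus).
Mrpl52: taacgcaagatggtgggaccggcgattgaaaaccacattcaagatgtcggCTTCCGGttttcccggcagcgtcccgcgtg
Mrps18b: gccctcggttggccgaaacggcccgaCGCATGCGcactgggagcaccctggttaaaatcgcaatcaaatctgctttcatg
Mrpl10: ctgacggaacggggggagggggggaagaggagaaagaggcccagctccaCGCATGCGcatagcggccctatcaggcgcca
Mrpl53: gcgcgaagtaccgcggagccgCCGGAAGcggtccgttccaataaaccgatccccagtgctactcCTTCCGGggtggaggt
Mrps18c: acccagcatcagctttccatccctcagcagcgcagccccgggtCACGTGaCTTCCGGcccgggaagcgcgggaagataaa
Mrpl52 (difference 0.52), Mrpl53 (-0.09) and Mrps18c (0.07, with an E box beside it) hold the ETS core, and Mrps18b (0.27) and Mrpl10 (-0.18) the NRF1 core, so both signs occur beside each. Mrps26, Mrpl18 and Mrps18a, all lower in KO, also hold the ETS core upstream of the start.

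Genes that work with the mitochondrial ribosome were set beside it, and 0 of them passed an adjusted p under 0.05. The 7 mitochondrial ribosomal proteins under other names had 2 higher and 5 lower in KO and a median of -0.08. Median scaling put that median at 0.002, through the shift of 0.08 that it gave all genes. Mrpl57 had 5.15 and 5.23 in KO and 5.49 and 5.42 in WT. Both KO samples were below both WT samples, with a difference of -0.26 ± 0.09 (limma adjusted p = 0.195). It was the 1 gene of the 7 with an unadjusted p under 0.05 in limma (14.3%, against 23.8% of all genes). Mrpl58, a peptidyl-tRNA hydrolase in the large subunit, followed with -0.19. Mrpl57 and Mrpl58, listed before as Mrp63 and Ict1, are current symbols. The probe names of the arrays, which set the membership, did not use them.

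Of 15 mitochondrial translation factors 14 were measured, with 9 higher, 5 lower and a median of 0.15, and 0 reached an unadjusted p under 0.05; Gfm2, a ribosome recycling factor, and Mtfmt, which formylates the initiator methionine, both had 0.27. Of the 20 genes for mitochondrial aminoacyl-tRNA synthesis, which charge the transfer RNAs, 12 were higher and 8 lower (median 0.04), and 2 higher and 1 lower reached an unadjusted p under 0.05, with Hars2 at 0.33 and Mars2 at -0.31. Of the 26 genes for ribosome assembly and mitochondrial RNA 17 were higher and 9 lower (median 0.06), with 1 each way at that p, Mettl17 at 0.48 and Gtpbp10, a GTPase of large-subunit assembly, at -0.34. Of the 11 measured genes for mitochondrial DNA transcription and replication 8 were higher (median 0.07), and 3 higher and 0 lower reached that p, among them the helicase gene Twnk (0.29) and Rrm2b (0.28). At that p in limma the shares were 15% of the synthesis genes, 7.69% of the assembly genes and 27.3% of the transcription and replication genes. Of all genes 23.8% reached it. None of these counts was tested against the family.

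The proteins that mitochondrial ribosomes help to build into the respiratory chain are joined there by nuclear-encoded subunits, of which 77 were measured. Of these, 55 were higher and 22 lower in KO, with a median of 0.06, and 4 higher and 0 lower reached an unadjusted p under 0.05; the same counts, 4 and 0, passed an adjusted p under 0.05 with an intensity trend. Cycs, the gene of cytochrome c, had 4.995 and 5.10 in KO and 4.42 and 4.30 in WT, without overlap and 0.69 apart on average, and Ndufv3 had a difference of 0.48. Of 83 cytosolic ribosomal protein genes 73 were higher and 10 lower, with a median of 0.09, and 3 higher and 0 lower reached an unadjusted p under 0.05, with Rps4x at 0.46 and Rps27a at 0.30. The point farthest right in that list, Rpl39l, picked out after its values were seen, was dim and overlapped between genotypes (1.35 ± 0.88). Many cytosolic ribosomal protein genes have near-identical pseudogenes that a probe may also read, so single values of that list are uncertain. Of the 10 measured regulators of mitochondrial biogenesis 3 were higher and 7 lower (median -0.11). At an unadjusted p under 0.05 in limma 0 were higher and 1 lower, Esrra (-0.22), or 10% against 23.8% of all genes. Nrf1, at -0.19, did not reach that p.

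Genes of dividing cells and markers of other cell types were set beside the family. All 26 mitotic genes were lower in KO, with a median of -0.52 and an unadjusted p under 0.05 in each, and 24 passed an adjusted p under 0.05 with an intensity trend; Foxm1 had -0.95 and Plk1 -0.77. Their summed level was 309 and 331 in the KO samples and 484 and 462 in the WT samples, whereas that of the 76 members was 724 and 727 in KO and 724 and 687 in WT. Of 13 monocyte and macrophage markers 12 were higher (median 0.76), and their summed level was 698 and 621 in KO and 608 and 603 in WT. Most of that sum came from Ly6c2, which had 9.21 and 9.05 in KO and 9.10 and 9.09 in WT and overlapped between genotypes. The 7 measured erythroid markers were all lower (median -0.61; 35.7 and 27.9 in KO, 48.3 and 46.7 in WT), and 4 of the 5 measured eosinophil markers were higher (median 0.87; 19.4 and 17.96 in KO, 12.9 and 11.1 in WT).

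Of the further marker lists, stem and progenitor markers had 6 of 7 measured genes higher (13.9 and 10.6 in KO, 7.71 and 7.55 in WT), and megakaryocyte markers 5 of 5 (2.31 and 2.84 in KO, 1.41 and 1.61 in WT). B lineage markers had 2 of 9 higher (12.5 and 9.35 in KO, 9.09 and 9.56 in WT), and T and NK markers 2 of 8 (47.3 and 39.7 in KO, 41.1 and 41.6 in WT). The brightest markers weigh most in such sums. Most of the B lineage sum came from Cd79b (difference 0.46), and most of the stem and progenitor sum from Cd34 (0.89). The part of these cell types and of dividing cells in the differences of the mitochondrial ribosomal protein genes was not tested.

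**Figure D4:**
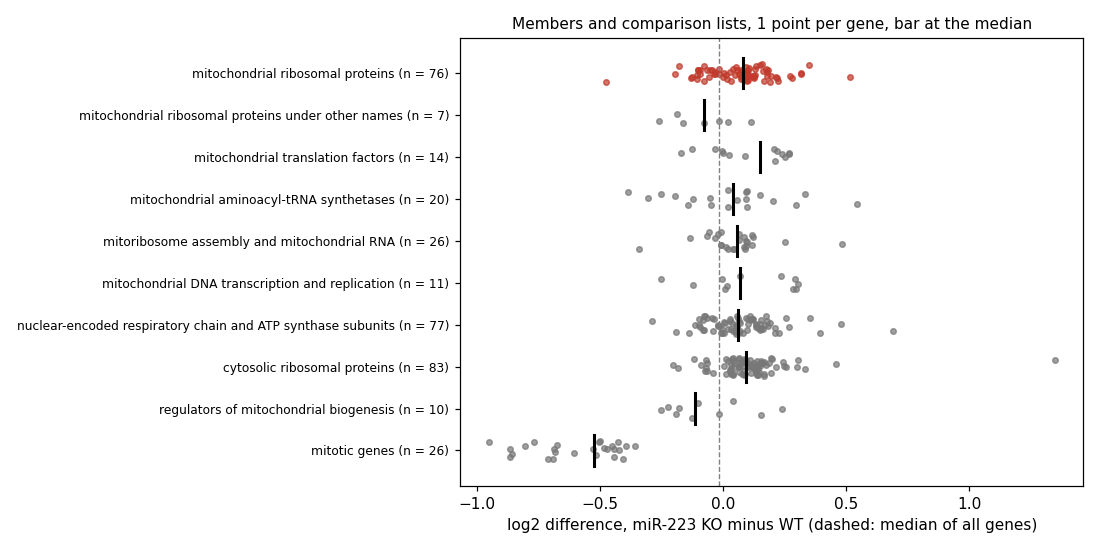
Log2 difference (miR-223 KO minus WT) of every measured gene of the mitochondrial ribosomal protein family and of each comparison list, 1 point per gene, with a bar at the list's median and a dashed line at the median of all genes (-0.02). The medians of the family, the respiratory chain, the cytosolic ribosome, translation factors, aminoacyl-tRNA synthetases, ribosome assembly and mitochondrial DNA lists lie above that line. Those of the proteins under other names and of the biogenesis regulators lie below it, and so do all mitotic genes.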

How the data were processed

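RNA from 4 samples (2 miR-223 KO, 2 WT) was labelled with Cy3 and hybridised to 1-colour mouse arrays, per the labels' protocols. Per the file headers, Agilent Feature Extraction 10.5.1.1 made the deposited intensity of each spot, a background-subtracted and detrended processed signal not scaled between arrays; mean spot and local background intensities lie beside it. In the value table deposited by the authors the values are log2 and tracked log2 processed signal on each array (Pearson's r across probes of at least 0.9999, column medians 4.68); how it was centred was read from the data. Probe positions are on mm9, per the file headers.

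Here log2 processed signal had each array's 75th percentile over non-control spots subtracted, and spots of a probe were averaged. Probes well above background on at least 2 arrays were kept (25749 of 41174), and the brightest probe stood for a gene (16978 genes). Names were updated through a RefSeq table of GRCm38.p6, which left all 76 member names as they were. Genotypes were compared over all genes with limma 3.58.1 in R 4.3.3 (lmFit, eBayes, Benjamini-Hochberg) without a replicate block, since same-numbered samples did not deviate together (r = 0.0386 across genes). With 2 samples against 2 the smallest p of an exact two-sided permutation test is 0.333, so tests rest on the spread limma shares across genes. The procedure was run on simulated data with differences of 2 log2 units in either direction. No member differed by that much, so that run does not show how the procedure handles differences of the members' size. Background correction, scaling, starting values, filter, probe rule, gene names, variance prior, block and samples used were varied in turn.

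The members and lists were chosen with earlier results of these data known. Members described singly are the 8 with the smallest p among those higher and the 8 among those lower in KO, the 3 S18 relatives, and Mrpl12, Mrps12, Mrpl44, Mrpl45, Mrps30 and Mrps36 for their roles; of each list other than the cell type markers the 2 genes with the smallest p are named. The array gives relative signals only.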

Additional observations from a re-analysis of the deposited data

How the results depend on the processing

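The median member difference stayed above 0 under every alternative run and was 0.3864 with normexp background correction fitted on all spots, 0.1621 with median scaling and 0.1645 with the authors' deposited values, against 0.083. The last 2 settings shifted all genes alike (by 0.079 and 0.0813), so the members' median minus that of all genes stayed at 0.10. That gap was 0.541 with normexp on all spots, 0.187 without control spots, 0.181 with no filter on dim probes and 0.065 with quantile normalization. Leaving out 1 sample gave members' medians of 0.0367 to 0.1102, the lowest without WT replicate 2. Members past an adjusted p under 0.05 numbered 1 with an intensity trend and 1 with normexp fitted without control spots (Mrpl52 in both, at differences of 0.516 and 0.554). Members higher at an unadjusted p under 0.05, 5 in the report, numbered 0 with normexp on all spots, 11 with normexp without control spots, 11 with the trend, 1 with no filter on dim probes, 2 with the mean over probes, 2 with a replicate block (which changed no other count of members; the samples share only a number) and 0 to 3 leaving out 1 sample. Over both directions the members' share at that p stayed under that of all genes. It was 0% against 1.44% with normexp on all spots, 14.5% against 34.8% without control spots and 17.1% against 28.3% with the trend. With no filter it was 2.63% against 12.5%, with the mean over probes 3.95% against 23.8% and with the block 3.95% against 22.3%. Members lower at that p, 1 in the report, numbered 0 with either normexp, median scaling or the deposited values, 2 with quantile normalization, 2 with the trend and 0 to 1 leaving out 1 sample. Members with both KO samples below both WT samples, 12 in the report, numbered 0 with normexp on all spots and 6 without control spots. That count was 1 with median scaling or the deposited values, which shifted all genes alike. With 1 sample left out it was 13 to 22 (the lowest without WT replicate 1, the highest without WT replicate 2). A genotype with 1 sample separates more easily in any gene, so the rise from 12 is not read as a property of the members. The matching shares of all genes are not given for these settings. With normexp on all spots 74 members were higher and 2 lower and the median of all genes moved by -0.138; with normexp without control spots 59 were higher and 17 lower.

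Signs turned for 9 of 22 members described singly. With normexp on all spots Mrpl15 had 0.2165, Mrps12 0.3302, Mrpl10 0.1888, Mrps26 0.2874, Mrpl18 0.2989, Mrpl49 0.3011, Mrps18a 0.2228, Mrpl53 0.3118 and Mrpl45 0.3777; on the WT replicate 1 array the highest local background was 80750, on a control spot, against 26.5 among its other spots. With normexp without control spots Mrpl15 had 0.0238, Mrpl49 0.0135 and Mrpl45 0.0124, and under both normexp settings another probe became the brightest of Mrpl15, Mrpl49 and Mrps23. Mrpl45 had 0.0358 with median scaling and 0.0382 with the deposited values, moved by as much as all genes, and 0.0032 with the mean over probes. Of 352 values of these members under alternatives, 335 kept their direction and side of the threshold. Genes called over the whole array numbered 0 in the report's setting, 1627 with the trend, 1885 with normexp without control spots, 125 with probes well above background on all 4 arrays and 61 with the deposited values. Signal over background did not limit the members, all measured on all arrays, whereas 2 samples a genotype limited each test.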
